A study of Gallus gallus with 9 samples.

Results

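The genes described here are the axon guidance and Eph-ephrin families of the chick: semaphorins with their plexin and neuropilin receptors, ephrins with their Eph receptors, Slits with their Robo receptors, and netrins with their Unc5 receptors. They were taken by gene symbol, with 1 probe set per gene, the one with the highest mean signal over all arrays. The pattern found 58 genes among the 13009 named genes on the array, measured by 148 probe sets, and 50 of the 58 were bright enough to test. By family these were 17 semaphorins (14 tested), 7 plexins (7 tested), 2 neuropilins (2 tested), 4 ephrins (4 tested), 12 Eph receptors (10 tested), 3 Slits and 3 Robo receptors (all tested), 6 netrins and netrin-G proteins (3 tested), and 4 genes whose symbol begins with UNC5 (4 tested). One of the last 4, UNC50, matches the letters only and is not a netrin receptor, so its values are given but it stands outside the biology of the family.

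RNA came from explants of chick splanchnic mesoderm. Its anterior heart field progenitors give rise to heart muscle of the outflow tract and right ventricle. Explants lay on collagen under medium with fetal calf serum and chick embryo extract. BMP4-treated explants received human recombinant BMP4 at 200 ng/ml for 3 h (1 array), 12 h (2 arrays, A and B) or 24 h (1 array), and untreated explants were collected at 0 h (1 array), 3 h (1 array), 12 h (2 arrays, A and B) and 24 h (1 array). Nothing in the labels tells if A and B came from separate explants, so the spread between them may be technical. The p-values at single times rest on that spread. Those from the model of time and agent also rest on how far the BMP4 difference varied between times.

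Guidance proteins were named for steering growing axons, and the same pairs of ligand and receptor act between many other embryonic cells. Secreted class 3 semaphorins bind neuropilins, which signal through plexins, while most membrane-bound semaphorins bind plexins directly. Ephrins sit on the cell surface and signal through Eph receptor tyrosine kinases on the neighbouring cell. Slits act through Robo receptors, and netrins through Unc5 and DCC receptors. In the embryo these systems are known for steering neural crest cells, for growth of blood vessels and for shaping the heart and its outflow tract.

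Several markers of the labelled tissue were present, though not all were bright. ISL1, a transcription factor of the anterior heart field, gave signals of 11120.0 at 3 h, 10088 and 9566 at 12 h and 9639 at 24 h with BMP4, against 6578, 7705 and 6589, and 7154 in untreated explants and 5402 at 0 h. Epithelial markers were present too, with EPCAM, an epithelial adhesion protein, between 21048 and 30824 on every array. Summed over 7 heart muscle markers, the signal was 17176 at 3 h, 39177 and 38103 at 12 h and 92166 at 24 h with BMP4, against 11760, 15161 and 23026, and 47470.0 in untreated explants, and 6 of the 7 were called higher with BMP4 over the times. The summed signal of 8 neural tissue markers was 2782 at 3 h, 1102 and 1427 at 12 h and 730.0 at 24 h with BMP4, against 2724, 2624 and 2611, and 3218 in untreated explants, with 1 of 7 tested markers (SOX3) called lower, and PAX6 was down to 6.93 in the BMP4 array of 24 h. Of 10 anterior heart field markers, HAND2 and ISL1 were called higher and EYA2 and FGF8 lower. NKX2-5 was bright like ISL1, at 4049 to 9211. MEF2C (9.56 to 117), FGF10 (13.3 to 188), EYA1 (6.51 to 102.5) and TBX1 (36.8 to 224) were dim. On some arrays each of these dim markers lay below the 40th percentile, 46.4 to 46.9. None of the tested markers of neural crest (6), endoderm and epithelium (7), endothelium (7) or blood (4) was called in limma for BMP4 over the times, with 1, 2, 1 and 2 of them at an unadjusted p under 0.05. In the comparison at 24 h, the neural crest marker TFAP2B was called lower, at 844 with BMP4 and 6721 without (log2 difference -2.95, adjusted p = 0.00167), and the epithelial keratin KRT7 higher, at 22039 with BMP4 and 11299 without (0.96, adjusted p = 0.0288). The neural markers PAX6 (-5.41, adjusted p = 5.99e-04) and SOX3 (-2.25, adjusted p = 0.0138) were called lower there. So were the anterior heart field markers EYA2 (-3.47) and FGF8 (-3.87), and the heart muscle marker ACTN2 was called higher (2.17). The 3′ to 5′ signal ratio of ACTB, a sign of RNA integrity, was 4.96 at 3 h, 5.50 and 4.26 at 12 h and 5.67 at 24 h with BMP4, against 4.51, 5.44 and 3.80, and 3.72 in untreated explants, higher with BMP4 at 3 and 24 h and overlapping at 12 h. The same ratio of GAPDH was 1.84 at 3 h, 1.81 and 1.40 at 12 h and 1.63 at 24 h with BMP4, against 2.22, 1.57 and 1.54, and 1.32 in untreated explants, lower with BMP4 at 3 h, overlapping at 12 h and higher at 24 h. The part of cell makeup and RNA integrity in the results that follow was not tested, and in RNA from whole explants fewer cells of a type and less RNA per cell cannot be told apart.

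Calls for BMP4 went in both directions among these genes, and a member without a call is not shown to be unchanged. Over 3, 12 and 24 h, the semaphorin SEMA6D, the Eph receptor EPHA1 and the netrin receptor UNC5B were higher with BMP4, and the semaphorin SEMA3D, the plexins PLXNA2 and PLXNC1 and the Eph receptor EPHA5 were lower. These 7 of 50 tested members passed an adjusted p of 0.05 in limma, in a model with time and agent over the 8 cultured arrays. The 3 members called higher stand beside 1.15% of the 11690 tested genes called higher, and the 4 called lower beside 0.710% called lower. The median log2 difference was -0.09 over the 50 members and -0.01 over all tested genes, with 19 members above 0 and 31 below, in a range of -1.57 to 1.19. At an unadjusted p under 0.05 there were 3 members higher and 10 lower, beside 2959 of all 28329 tested probe sets in either direction. Only the EPHA5 call held whichever single 12 h array was left out, and that of UNC5B held without untreated B. Without all 12 h arrays no member was called, and without the 24 h arrays EPHA5 and NTNG2 were. Leaving out arrays also weakens the test, so a lost call need not mean that the difference itself depended on them. With variances that do not follow a trend over the signal, limma called no member (12 at an unadjusted p under 0.05), and with a gene's probe sets averaged it called 2, EPHA1 and UNC5B.

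**Figure D1:**
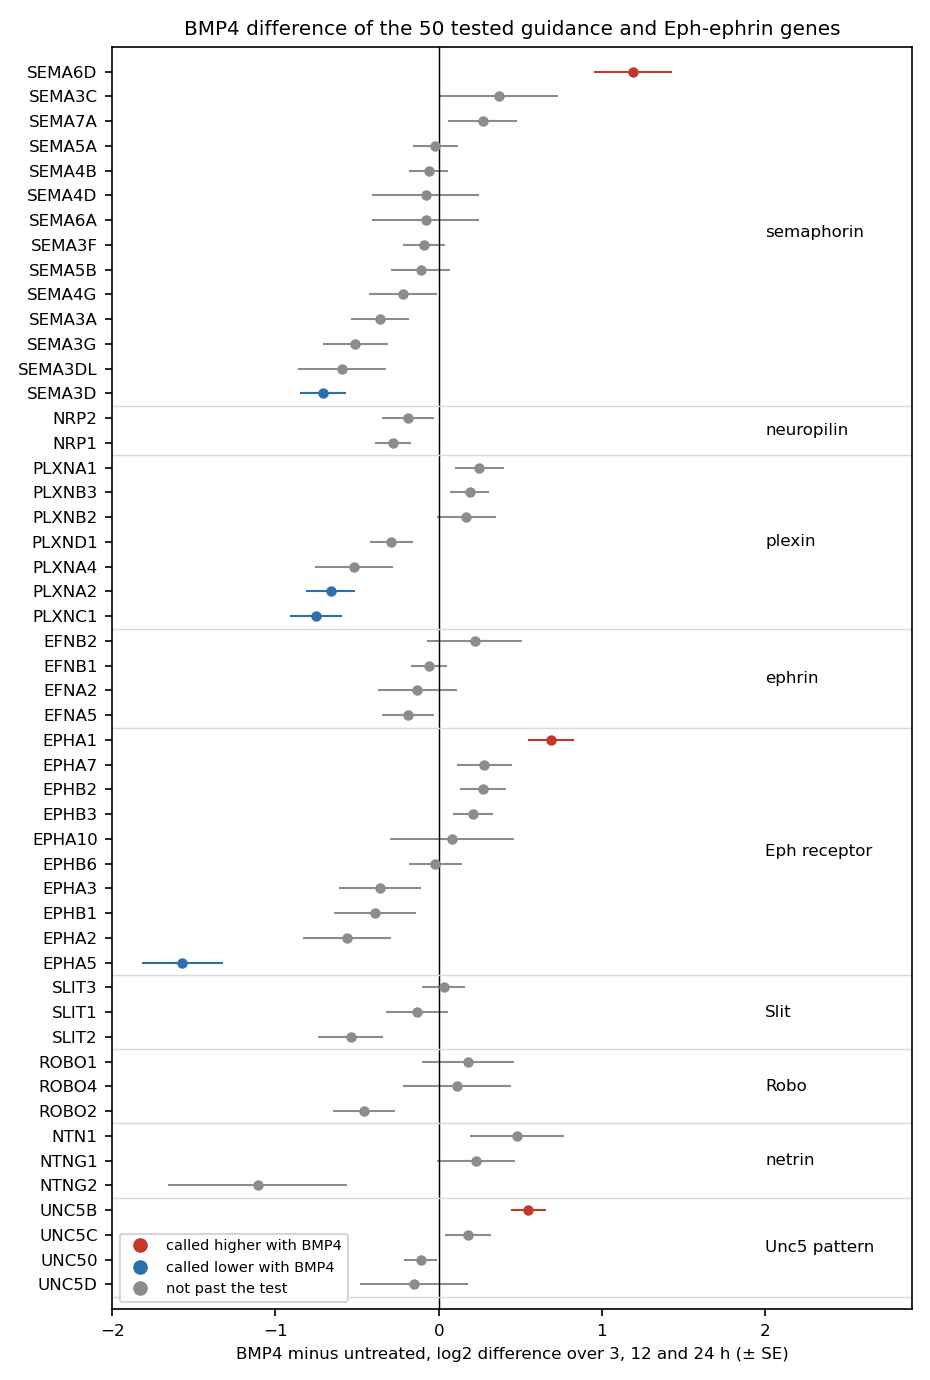
Log2 difference of BMP4 minus untreated over 3, 12 and 24 h (x axis) for each of the 50 tested genes (y axis), grouped by family, with bars of 1 standard error from the fit. EPHA5 at -1.57 lies lowest and SEMA6D at 1.19 highest, and the ephrins lie between -0.19 and 0.22.

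Semaphorins are the largest ligand family of the set. SEMA6D, a membrane-bound semaphorin that in chick embryos acts through plexin A1 in heart shaping, gave signals of 212 at 3 h, 683 and 588 at 12 h and 1288 at 24 h with BMP4. Untreated explants gave 158 at 3 h, 247 and 141 at 12 h, 566 at 24 h and 214 at 0 h. The BMP4 array was the higher one at each time, and only the BMP4 array of 3 h lay within the untreated range. The log2 difference over the times was 1.19 ± 0.24 (SE, adjusted p = 0.0281).

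SEMA3D, a secreted class 3 semaphorin, moved the other way. Its signal was 2889.6 at 3 h, 1958 and 1609 at 12 h and 1238 at 24 h with BMP4, against 3269.5, 3428 and 3163, and 2335 in untreated explants and 3619 at 0 h. Each BMP4 array lay below the untreated array of its time, and the ranges overlapped only through the BMP4 array of 3 h. The log2 difference over the times was -0.71 ± 0.14 (SE, adjusted p = 0.0291). At 12 h the mean was 1783 ± 247 with BMP4 and 3296 ± 187 without (SD, n = 2 each).

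Of the 12 other tested semaphorins none was called, and their log2 differences over the times ran from -0.59 for SEMA3DL to 0.37 for SEMA3C. SEMA3G at -0.51 and SEMA3DL had an unadjusted p under 0.05, and SEMA3A, a repellent for many axons, was at -0.36 (adjusted p = 0.535). In the order of coding genes on the chicken assembly GRCg7b, SEMA3D, SEMA3A and SEMA3E follow each other. SEMA3E was among the 8 members too dim to test, with SEMA3B and SEMA6B.

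Neuropilins, the binding partners of class 3 semaphorins, were not called for BMP4. NRP1, also a co-receptor for VEGF, gave 3540.4 at 3 h, 4572 and 4614 at 12 h and 3409 at 24 h with BMP4, against 4356, 4661 and 5592, and 4892 in untreated explants and 4534 at 0 h. Every BMP4 array was below the untreated arrays of its time, by a log2 difference of -0.28 ± 0.11 (adjusted p = 0.349). NRP2 differed by -0.19 (adjusted p = 0.782).

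Both called plexins were lower with BMP4 than without. PLXNC1, the receptor for SEMA7A, gave 2499 at 3 h, 3700.0 and 3334 at 12 h and 2505 at 24 h with BMP4. In untreated explants it gave 2832 at 3 h, 6243 and 5283 at 12 h, 6761 at 24 h and 3684 at 0 h. The untreated signal was higher at 12 and 24 h than at 3 h, while the BMP4 array of 24 h stood at the level of the 3 h array. The log2 difference over the times was -0.75 ± 0.16 (adjusted p = 0.0375). SEMA7A, its ligand, was not called, at 0.27 ± 0.21.

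PLXNA2, a plexin that signals for class 3 and class 6 semaphorins, gave 2759 at 3 h, 1656 and 1458 at 12 h and 1189 at 24 h with BMP4, against 3477, 3442 and 2426, and 1760.5 in untreated explants and 3635 at 0 h. In linear signal, the 2 untreated 12 h arrays differed from each other by more than the lower of them differed from the higher BMP4 array. On the log2 scale they differed by slightly less. The log2 difference was -0.66 ± 0.15 (adjusted p = 0.0485), close to the threshold. The 5 other plexins ran from -0.52 for PLXNA4 to 0.25 for PLXNA1, with PLXND1 at -0.29 (unadjusted p = 0.0479).

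The chosen probe set of PLXNA4 was dim, at 41.6 at 3 h, 76.5 and 83.9 at 12 h and 53.0 at 24 h with BMP4 and at 121, 101 and 99.7, and 86.1 in untreated cultured explants. It and EPHA5 were the members whose 4 BMP4 arrays all lay below the 4 untreated cultured arrays, beside 2.10% of all tested genes. No member had its 4 BMP4 arrays all above the untreated ones, beside 2.02% of all tested genes. PLXNA4 did not pass the test (log2 difference -0.52 ± 0.24, adjusted p = 0.484), and it is named after its values were seen. A probe set of similar brightness was lower with BMP4 at 3 h (35.6 with and 93.8 without) and at 24 h (6.93 and 80.0). At 12 h both its BMP4 arrays, at 82.4 and 100.2, were above the untreated ones, at 75.1 and 58.6. Its difference over the times was -0.48, and the 4 tested probe sets ran from -0.52 to 0.63.

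**Figure D2:**
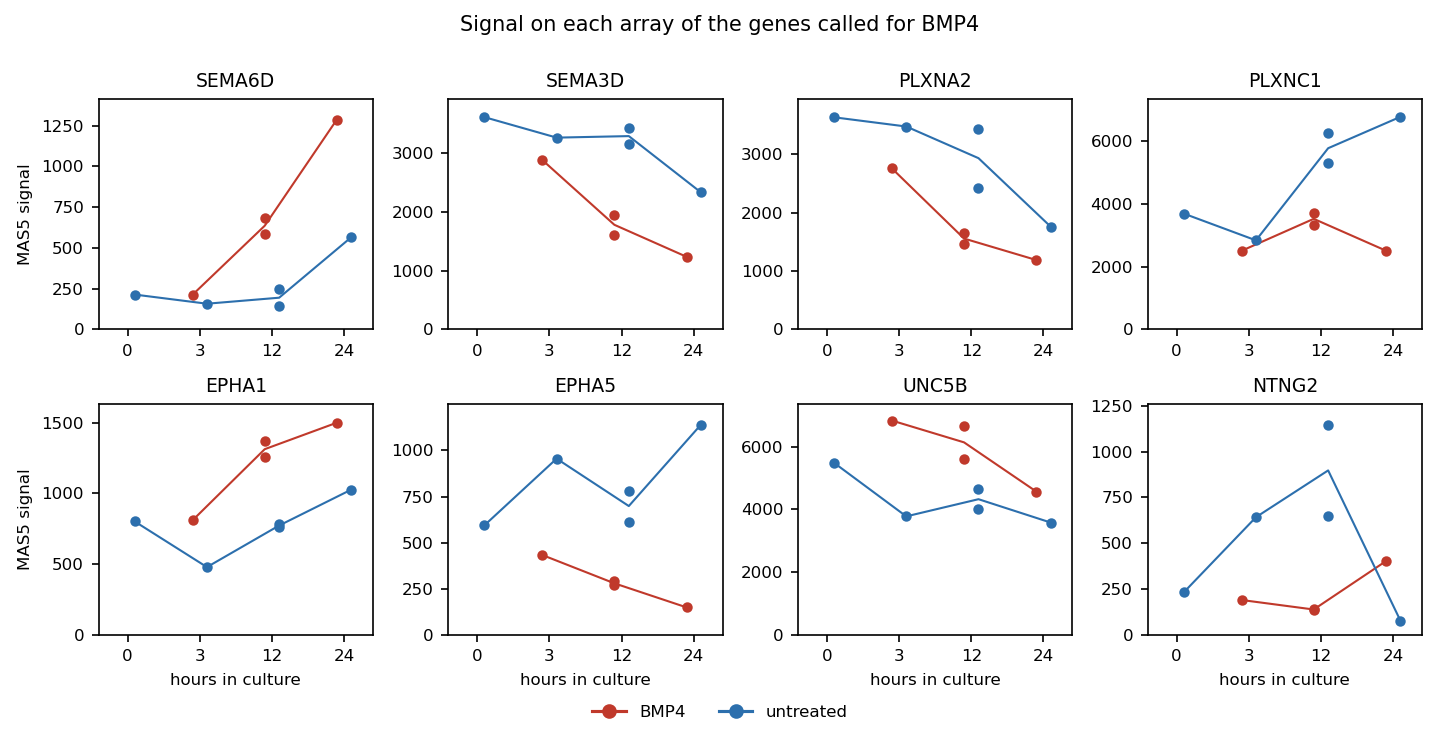
Deposited signal (y axis, linear, from 0) of 8 genes by time in culture (x axis, h, evenly spaced), 1 point per array, BMP4 and untreated, with lines through the means at each time. EPHA5 stays between 148 and 433 with BMP4 and between 614 and 1141 in untreated cultured explants, while NTNG2 at 24 h is 401 with BMP4 and 77.4 without.

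The 4 ephrins, the ligands of the Eph system, showed no call. EFNB1, a membrane-spanning ephrin, gave 3467 at 3 h, 2983 and 3344 at 12 h and 2459.5 at 24 h with BMP4, against 3728, 2878 and 3456, and 2735 in untreated explants and 3115 at 0 h. Its arms overlapped, with a log2 difference of -0.06 ± 0.11. EFNB2 had the widest difference of the family at 0.22 ± 0.29. Its signal was 76.8 at 3 h, 52.0 and 94.7 at 12 h and 93.9 at 24 h with BMP4, against 43.3, 42.4 and 114, and 68.3 in untreated explants and 74.9 at 0 h, and the arms overlapped at 12 h. EFNA5 and EFNA2, which are held to the membrane by a lipid anchor, were at -0.19 ± 0.16 and -0.13 ± 0.24.

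EPHA5, a receptor for the ephrin-A ligands, had the largest BMP4 difference over the times among the 50 members. Its signal was 433 at 3 h, 289.6 and 268 at 12 h and 148 at 24 h with BMP4. It was 956 at 3 h, 783 and 614 at 12 h and 1141 at 24 h in untreated explants, and 594 at 0 h. The arms did not overlap, and the lowest untreated array stood above the highest BMP4 array. The log2 difference over the times was -1.57 ± 0.25 (adjusted p = 0.00639), and the 12 h means were 279 ± 15.2 with BMP4 and 698 ± 119 without (SD, n = 2 each).

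EPHA1, another ephrin-A receptor, was higher with BMP4 than without. Its signal was 809 at 3 h, 1369 and 1256 at 12 h and 1500.4 at 24 h with BMP4, against 478, 781 and 764, and 1027 in untreated explants and 801 at 0 h. Each BMP4 array was above the untreated arrays of its time, and only the BMP4 array of 3 h lay within the untreated range. The log2 difference was 0.69 ± 0.14 (adjusted p = 0.0280), and the 12 h means were 1313 ± 80.1 with BMP4 and 773 ± 12.4 without (SD, n = 2 each).

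The 8 other tested Eph receptors were not called, in a range from -0.56 for EPHA2 to 0.28 for EPHA7. EPHB3, the brightest of the family and a receptor for ephrin-B ligands, gave 5849 at 3 h, 3200.1 and 4151 at 12 h and 3084 at 24 h with BMP4, against 4970.2, 2821 and 3046, and 3144 in untreated explants and 5711 at 0 h. Its log2 difference over the times was 0.21 ± 0.12 (adjusted p = 0.603). EPHA4 and EPHA6 were too dim to test.

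Slits and Robo receptors were not called. SLIT3, the brightest Slit, gave 1413 at 3 h, 1288 and 1551 at 12 h and 1344 at 24 h with BMP4, against 1409, 1439.6 and 1347, and 1264 in untreated explants and 2240.4 at 0 h, with a log2 difference of 0.03 ± 0.13. SLIT2 gave 367 at 3 h, 279 and 372 at 12 h and 248 at 24 h with BMP4, against 512, 433 and 357, and 601 in untreated explants and 448 at 0 h. The SLIT2 arrays overlapped between the arms at 12 h but were lower with BMP4 at 3 and 24 h (log2 difference -0.54 ± 0.20, adjusted p = 0.335). ROBO2 gave 303 at 3 h, 228 and 259 at 12 h and 397 at 24 h with BMP4, against 322, 463 and 413, and 454 in untreated explants and 455 at 0 h. Its difference of -0.46 ± 0.19 had an adjusted p of 0.414, and both 12 h BMP4 arrays were below both untreated ones.

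UNC5B, a netrin receptor that also acts in blood vessels, was higher with BMP4 than without. It gave 6829 at 3 h, 5615 and 6651 at 12 h and 4566 at 24 h with BMP4, against 3773, 4007 and 4634, and 3576 in untreated explants and 5479 at 0 h. The BMP4 array was the higher one at each time, with the 24 h BMP4 array inside the untreated range, and the log2 difference was 0.55 ± 0.11 (adjusted p = 0.0309). UNC5C and UNC5D, receptors of the same family, were at 0.18 ± 0.14 and -0.15 ± 0.33. UNC50 gave 5060.0 at 3 h, 5132 and 4067 at 12 h and 5377 at 24 h with BMP4, against 5983, 4648 and 4832, and 5754 in untreated explants and 5273 at 0 h, with a difference of -0.11 ± 0.10.

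NTN1, the classical netrin ligand, was dim at 10.9 to 72.1 and was not called (0.48 ± 0.29). NTN3, NTN4 and NTN4L were too dim to test. The 8 untested members had signals of 4.91 to 72.3, around the 40th percentile of the arrays, 46.4 to 46.9, that the filter used.

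NTNG2, a netrin-G that is anchored to the membrane and does not use the netrin receptors, had a difference that changed sign with time. Its chosen probe set gave 189 at 3 h, 138 and 137 at 12 h and 401 at 24 h with BMP4. Untreated explants gave 641 at 3 h, 1144 and 650.0 at 12 h, 77.4 at 24 h and 231 at 0 h. The BMP4 arrays were lower at 3 and 12 h and higher at 24 h. The log2 difference over the times, -1.11 ± 0.55, thus averaged opposite values and was not called in limma (adjusted p = 0.516). Other members changed sign too, by smaller amounts, among them EPHB1 (0.60 at 3 h and -1.09 at 24 h) and SEMA5B (0.33 and -1.01).

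For single times, a model of 7 group means was fitted to the 9 arrays. Its spread comes from the 12 h pairs alone, so the lone arrays at 3 and 24 h are assumed to vary like those. At 12 h, SEMA6D was higher with BMP4 (log2 difference 1.62 ± 0.29, adjusted p = 0.0403) and NTNG2 lower (-2.43 ± 0.30, adjusted p = 0.00697). Among all tested genes 0.693% were called higher and 0.342% lower at 12 h. Without BMP4 A the SEMA6D call was lost (1.51, adjusted p = 0.120), as it was without untreated B (1.27, adjusted p = 0.113), and without BMP4 A 1 member was called. Without the variance trend, or with probe sets averaged, neither gene was called at 12 h. EPHA5 was at -1.23 ± 0.24 (adjusted p = 0.0581) and SEMA3D at -0.88 ± 0.17 (adjusted p = 0.0601), short of the threshold.

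At 24 h, EPHA5 (-2.73 ± 0.34, adjusted p = 0.00730) and PLXNC1 (-1.42 ± 0.22, adjusted p = 0.0210) were lower with BMP4, beside 0.778% of all tested genes called lower. No member was called higher at 24 h, beside 0.436% of all tested genes. At an unadjusted p under 0.05 in limma, 3 members were higher and 14 lower, beside 2868 of all 28329 tested probe sets in either direction. NTNG2, at 2.03 ± 0.43, had an adjusted p of 0.0725. It was called at 24 h in each fit that lacked 1 array of 12 h. The size of the difference could not change in those fits, because the 12 h arrays enter only its spread. The EPHA5 and PLXNC1 calls were lost without the variance trend (adjusted p = 0.350 for EPHA5 and 0.402 for PLXNC1) and with probe sets averaged (0.0863 and 0.111), and each of these settings left 0 members called. At 24 h the summed neural crest marker signal was 5307 with BMP4 and 10364 without, mostly through TFAP2B, at 844 and 6721. ETS1 was higher with BMP4, at 2809 and 1704, and FOXD3, SNAI2, SOX10 and TFAP2A were lower, none of these called. TFAP2B, PAX6, SOX3 and the anterior heart field markers EYA2 and FGF8 were called lower, and ACTN2 and KRT7 higher. The part of these markers in the differences of the members was not tested.

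The 12 further members below 0 at 24 h with an unadjusted p under 0.05 were SEMA5B (-1.01), SEMA3D (-0.90), SEMA3A (-0.83), SLIT2 (-1.19), EPHB1 (-1.09), EPHA2 (-1.17), EPHA3 (-1.16), SEMA4D (-1.37), SEMA3G (-0.78), PLXND1 (-0.70), EFNA5 (-0.69) and NRP1 (-0.52), none called. For SEMA4D (7.92 with BMP4, 64.3 without) and EPHA2 (24.3 and 89.8) the BMP4 array was below its 40th percentile, 46.9. Other tested probe sets differed in sign for SEMA5B (-0.50, 0.48 and 0.66), EPHB1 (0.40), EFNA5 (0.21 and 0.35) and SEMA3G (-1.72 to 0.81). Those of SEMA3D (-0.51), PLXND1 (-0.88) and NRP1 (-0.05) were below 0 too.

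At 3 h no member was called in limma, beside 0.0257% of all tested genes in either direction. At an unadjusted p under 0.05 there were 2 members higher and 4 lower, beside 1212 of all 28329 tested probe sets in either direction. These members included UNC5B at 0.85 ± 0.21, EPHA1 at 0.73 ± 0.28, NTNG2 at -1.62 ± 0.43 and EPHA5 at -1.09 ± 0.34. Every member called over the times kept its sign at each of the 3 times. SEMA6D, EPHA1 and UNC5B were above 0 at each, and SEMA3D, PLXNA2, PLXNC1 and EPHA5 below 0. The fit over the times uses these same arrays and favours differences that agree between times, so the shared sign is no separate support.

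**Figure D3:**
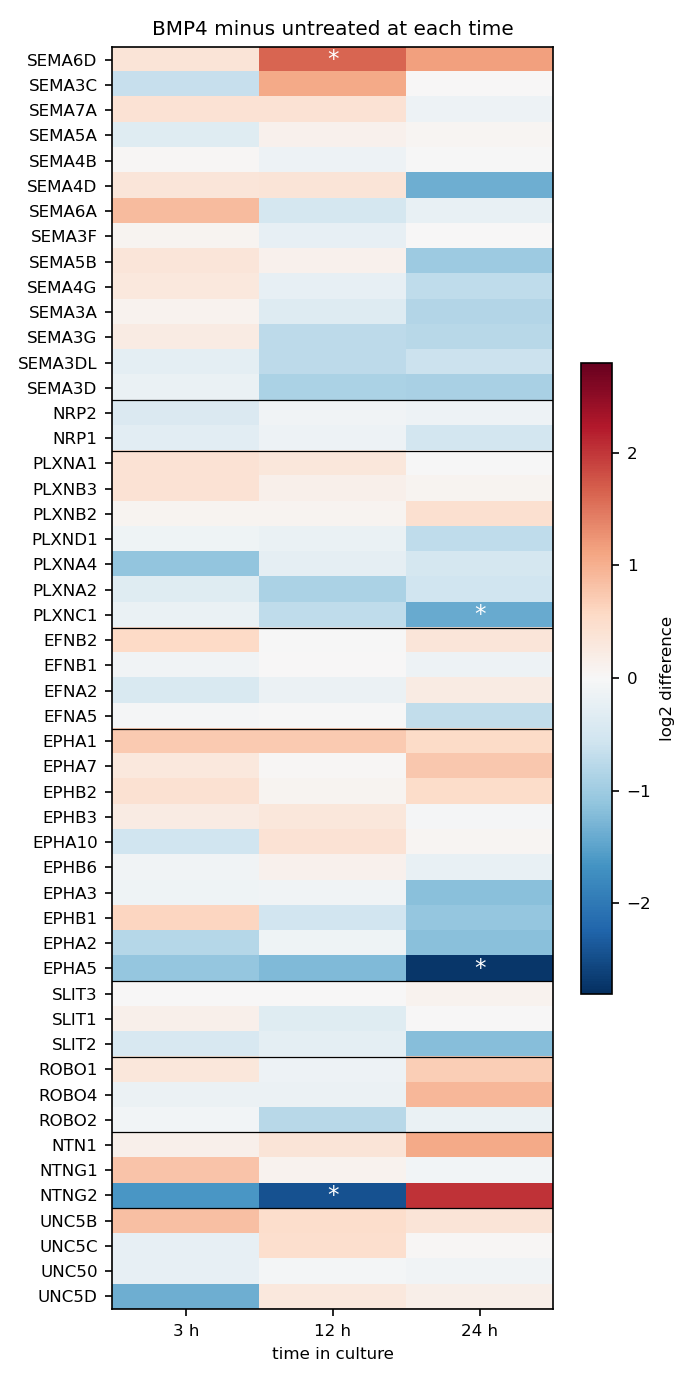
Heat map of the log2 difference of BMP4 minus untreated at 3, 12 and 24 h (columns) for the 50 tested genes (rows, by family), with an asterisk where the adjusted p is under 0.05. EPHA5 is negative at all 3 times with -2.73 at 24 h, and NTNG2 is negative at 3 and 12 h and positive, at 2.03, at 24 h.

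The change of the BMP4 difference between times was tested directly. From 3 h to 24 h no member was called in limma, beside 0.128% of all tested genes in either direction. At an unadjusted p under 0.05, beside 2023 of all 28329 tested probe sets, there were 7 members. These included NTNG2 (change 3.65 ± 0.61, adjusted p = 0.0912), EPHA5 (-1.64 ± 0.48, adjusted p = 0.454), PLXNC1 (-1.24 ± 0.31, adjusted p = 0.354) and SEMA5B (-1.34 ± 0.33, adjusted p = 0.354). NTNG2 was called in each fit that lacked 1 array of 12 h, but those arrays enter only the spread and not the size of this change. From 12 h to 24 h, a contrast added after the data were seen, NTNG2 changed by 4.46 ± 0.53 (adjusted p = 0.0478), the only member called, beside 0.0171% of all tested genes called in that direction. That call was lost under 5 of 13 alternatives (adjusted p up to 0.713).

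The other probe sets of NTNG2 did not show this course. A second one, with a mean signal of 50.9, gave 86.9 at 3 h, 77.5 and 75.5 at 12 h and 18.6 at 24 h with BMP4, against 56.7, 41.7 and 41.3, and 32.0 in untreated explants and 27.8 at 0 h. Its BMP4 arrays were the higher ones at 3 and 12 h and the lower one at 24 h, the reverse of the chosen probe set, with 0.59 at 12 h (adjusted p = 0.731) and -0.37 at 24 h (adjusted p = 0.888). The third was too dim to test, with a mean of 11.9. What NTNG2 shows thus depends on which probe set is read.

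Other members were compared over their probe sets in the same way. Of 33 members with more than 1 tested probe set, 21 had the same sign of the BMP4 difference over the times in all of them and 12 did not. The 6 called members with several tested probe sets were among the 21. The 4 probe sets of SEMA6D gave 1.19, 0.91, 0.68 and 0.24, and the 4 of PLXNA2 gave -0.66, -0.60, -0.48 and -0.12. The 3 of PLXNC1 gave -0.75, -0.54 and -0.36, and the second ones of SEMA3D, EPHA5 and UNC5B gave -0.46, -0.74 and 0.68. Among these second probe sets that of UNC5B was called too in limma (adjusted p = 0.0189), while EPHA1 had 1 probe set only. Some of the others were dim, so their sign carries little information. The second of EPHA5, with a mean signal of 44.4, gave -0.16 at 12 h. The third of PLXNC1, with a mean of 73.6, gave 0.14 at 12 h, against the sign of the chosen one.

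**Figure D4:**
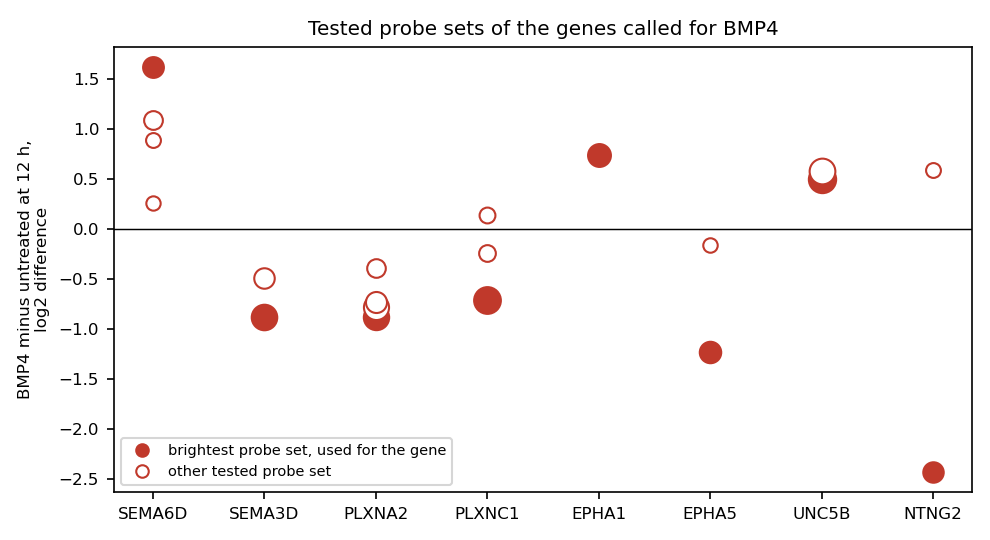
Log2 difference of BMP4 minus untreated at 12 h (y axis) for every tested probe set of the genes called for BMP4 (x axis), the filled point being the brightest and the point size growing with mean signal. For NTNG2 the chosen probe set is at -2.43 and the second at 0.59.

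For the chosen probe sets, time in culture went with calls in every family but the ephrins, Slits, Robo receptors and Unc5 receptors. Second probe sets of SLIT3 (0.87, adjusted p = 0.0203), SEMA3C (2.12, adjusted p = 0.00810) and UNC50 (1.70, adjusted p = 0.00324) were called higher in limma from 3 h to 24 h. Their chosen ones, at -0.11, 1.32 and 0.02, were not. From 3 h to 24 h over both agents, 3 of 50 members rose, beside 5.65% of all tested genes, and 7 fell, beside 4.32% of all tested genes. The median log2 difference was -0.28 over the members and -0.01 over all tested genes. The number of called members was 9 to 10 in fits that lacked 1 array of 12 h, and 1 (SEMA6D) without the trend in the variances.

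The 3 that rose were SEMA6D, EPHA1 and PLXND1. SEMA6D had 3 h and 24 h signals of 212 and 1288 with BMP4 and of 158 and 566 without (log2 difference over both agents 2.07 ± 0.34, adjusted p = 0.00257). EPHA1 differed by 0.96 ± 0.19 (adjusted p = 0.00972), and in each arm its 3 h array was the lowest. PLXND1, a plexin of blood vessels and, in mice, of outflow tract formation, gave 1131 at 3 h, 1572 and 1615 at 12 h and 1636 at 24 h with BMP4, and 1224 at 3 h, 1810.4 and 1809 at 12 h and 2679 at 24 h in untreated explants, with 1147 at 0 h. Its difference over both agents was 0.82 ± 0.19 (adjusted p = 0.0211), and a second, dim probe set gave 0.19 (adjusted p = 0.864). The endothelial markers KDR, CDH5 and TEK, 3 of 7 tested, rose over the same times, and the summed signal of the 7 was 2247 at 3 h, 4773 and 4210.0 at 12 h and 5350.0 at 24 h with BMP4 and 2188 at 3 h, 3871 and 3383 at 12 h and 5861 at 24 h in untreated explants. Whether these markers and PLXND1 are linked was not tested.

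The 7 that fell were the plexins PLXNA1 and PLXNA2, the semaphorins SEMA3D and SEMA3F, the neuropilin NRP2, the Eph receptor EPHB3 and the netrin-G NTNG1. NRP2, a receptor for SEMA3F and VEGF-C, gave 1201 at 3 h, 694 and 955 at 12 h and 727 at 24 h with BMP4, and 1610.2 at 3 h, 778 and 983 at 12 h and 801 at 24 h in untreated explants, with 1924 at 0 h (log2 difference -0.84 ± 0.22, adjusted p = 0.0398). The 2 arms of NRP2 overlapped at 12 h, and in both the 3 h array was the highest. SEMA3F, its secreted ligand, gave 2124 at 3 h, 1302 and 1674 at 12 h and 1266 at 24 h with BMP4, and 2003 at 3 h, 1726 and 1729.7 at 12 h and 1263 at 24 h in untreated explants, with 2081 at 0 h. Its difference was -0.69 ± 0.19 (limma, adjusted p = 0.0437), and the call was lost without untreated A, untreated B or BMP4 B. The size of the difference could not change in those fits, because the 12 h arrays do not enter 24 h minus 3 h.

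PLXNA1, which pairs with neuropilins and binds SEMA6D, gave 2111 at 3 h, 1369 and 1897 at 12 h and 953 at 24 h with BMP4, and 1585 at 3 h, 1289 and 1291 at 12 h and 967 at 24 h in untreated explants, with 1450.1 at 0 h (-0.91 ± 0.21, adjusted p = 0.0178). PLXNA2 fell by 1.08 on the log2 scale (SE 0.21, adjusted p = 0.00756), and in each arm its 24 h array was the lowest. SEMA3D (-0.84 ± 0.20, adjusted p = 0.0249) also had its lowest array at 24 h in each arm. The test of time and that of BMP4 use the same 8 arrays.

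EPHB3 fell by 0.79 on the log2 scale (SE 0.16, adjusted p = 0.0123), with its 0 h and 3 h arrays at 4970.2 to 5849 and its later arrays at 2821 to 4151. NTNG1, an anchored netrin-G, gave 714 at 3 h, 235 and 301 at 12 h and 175 at 24 h with BMP4, and 398 at 3 h, 172 and 351 at 12 h and 186 at 24 h in untreated explants, with 489.6 at 0 h (-1.43 ± 0.34, adjusted p = 0.0224). A second NTNG1 probe set gave 0.60 (adjusted p = 0.505), and the 2 other tested NRP2 probe sets gave 0.02 and -0.25, so these 2 calls rest on the brightest probe set. The 5 other tested probe sets of PLXNA1 gave -0.70 to 0.24, none called. Over the same times 5 of 6 neural crest markers fell (FOXD3, SOX10, SNAI2, ETS1 and TFAP2A), and the part of neural crest cells in the falls above was not tested.

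**Figure D5:**
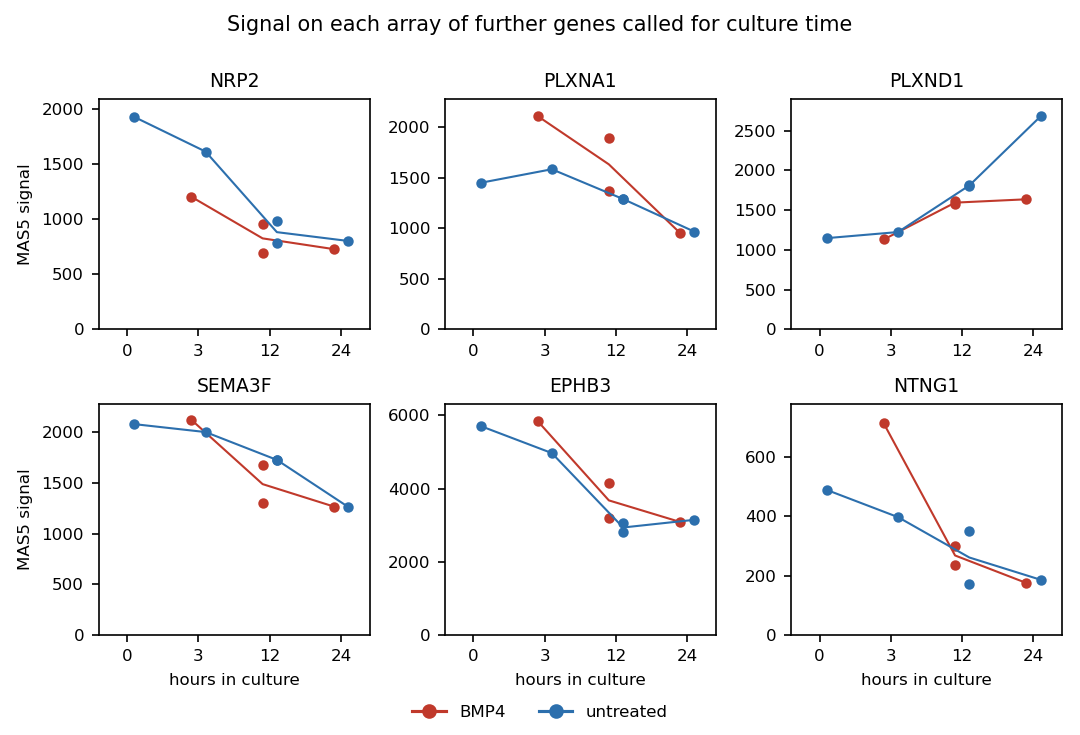
Deposited signal (y axis, linear, from 0) of 6 genes called for time in culture by hours (x axis, evenly spaced), 1 point per array, BMP4 and untreated, with lines through the means. PLXND1 reaches 1636 with BMP4 and 2679 without at 24 h, and EPHB3 drops between 3 and 12 h in both arms.

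Untreated explants alone were compared with the tissue at 0 h. At 3 h no member was called in limma, beside 0.522% of all tested genes in either direction. At an unadjusted p under 0.05, 3 members were higher and 4 lower, beside 2606 of all 28329 tested probe sets in either direction. At 24 h PLXND1 was higher (1.20 ± 0.25, adjusted p = 0.0436), beside 1.90% of all tested genes called higher. The call was lost with no filter (adjusted p = 0.0670), without the variance trend (0.294) and with probe sets averaged (0.204). No member was called lower at 24 h, beside 0.659% of all tested genes. At an unadjusted p under 0.05 there were 5 members higher and 11 lower, beside 3800 of all 28329 tested probe sets in either direction. PLXNC1 at 0.87 ± 0.22 (adjusted p = 0.0941), NRP2 at -1.24 ± 0.32 (adjusted p = 0.107), PLXNA2 at -1.03 ± 0.28 (adjusted p = 0.122), EPHB3 at -0.86 (adjusted p = 0.123) and SLIT1 at -1.32 ± 0.37 (adjusted p = 0.138) came next. Both of these contrasts share the 0 h array.

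Other genes of these pathways were read from a list of 56, of which 47 are on the array and 45 were tested. Over the times with BMP4, 1 was called higher, beside 1.15% of all tested genes, and none lower in limma, beside 0.710%. At an unadjusted p under 0.05 there were 5 higher and 1 lower, beside 2959 of all 28329 tested probe sets in either direction. The one called was LIMK2, a kinase that blocks the actin-severing protein cofilin. It gave 3154 at 3 h, 3932 and 3259 at 12 h and 2858 at 24 h with BMP4, against 2272, 1788 and 1913, and 1754 in untreated explants and 2368 at 0 h, and the arms did not overlap (0.76 ± 0.13, adjusted p = 0.00883). At 12 h CXCL12, a chemokine that guides migrating cells, was also higher, at 3220.2 and 2645 with BMP4 and 852 and 762 without. Its log2 difference was 1.82 ± 0.19 (limma, adjusted p = 0.00208). LIMK2 was called higher at 12 h too (0.94 ± 0.17, adjusted p = 0.0420), beside 0.693% of all tested genes. At 3 h CXCL12 was at 1649 with BMP4 and 3037 without, a difference of -0.87 ± 0.27 that was not called. At 24 h it was at 1320 with BMP4 and 663 without (0.96 ± 0.27, not called). The 0 h array was at 3386, so the BMP4 arrays of 12 h did not exceed it and the untreated ones lay below it.

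With time in culture, 4 of the 45 were higher and 8 lower at an unadjusted p under 0.05, beside 5786 of all 28329 tested probe sets in either direction. By adjusted p none fell over both agents, beside 4.32% of all tested genes, and 3 rose, beside 5.65%. They were NGEF, an exchange factor downstream of EphA receptors (1.64 ± 0.35, adjusted p = 0.0125), GPC1, a heparan sulfate proteoglycan that binds Slits (0.60 ± 0.11, adjusted p = 0.00743), and RAC1, a GTPase of plexin and netrin signalling (0.53 ± 0.14, adjusted p = 0.0325). The untreated 24 h array was also compared with the 0 h array, 1 array each, in limma. NGEF (2.30 ± 0.42, adjusted p = 0.0254) and GPC1 (0.88 ± 0.17, adjusted p = 0.0366) were called higher, beside 1.90% of all tested genes. CXCL12 (-2.30 ± 0.27, adjusted p = 0.00267) and DRAXIN, a secreted repellent (-1.94 ± 0.40, adjusted p = 0.0425), were called lower, beside 0.659%.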

How the data were processed

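RNA was measured on 9 Affymetrix chicken arrays. The authors deposited 1 signal intensity per probe set, linear in scale, and the submitters' processing notes name MAS5. The scaling target and genome build are not given in the sources used here. The 2% trimmed means were 503.66 to 504.72, so no scaling was added. For testing, 27.79 (the table's 25th percentile) was added to each signal before taking log2. Probe sets above the 40th percentile of their own array on at least 2 arrays were tested (28329 of 38535; 96 controls left out). limma 3.58.1 in R 4.3.3 was used with a variance trend, two-sided, with Benjamini-Hochberg adjustment over all 28329. The fit of time and agent has 4 residual degrees of freedom, the fit of group means 2. The number of arrays limits the precision. Names came from the array's annotation.

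The members and lists were chosen with earlier results of these data known. Values per array are given for called members, the brightest member and the one with the widest BMP4 difference in each family, and NTNG2, and for PLXNA4, added after its values were seen. Others are given by counts and ranges. The scripts were tested on simulated data. A and B at 12 h carry the same labels in both arms, but their deviations correlated at 0.126 over only 2 pairs, which does not show pairing. Alternatives varied the added value, filter, trend, normalization, probe set rule, threshold, block and arrays.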

Additional observations from a re-analysis of the deposited data

Results flagged for a closer look

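NTNG2 stood out by the size of the change between times in the BMP4 difference of its chosen probe set. The change from 12 h to 24 h was 4.46 ± 0.53 on the log2 scale (limma, adjusted p = 0.0478), in a contrast chosen after the data were seen. The signal at 24 h was 401 with BMP4 and 77.4 without, and at 12 h it was 138 and 137 with BMP4 and 1144 and 650.0 without. Each 24 h group is 1 array. The range over its alternatives was 1.75 to 5.0, with an adjusted p up to 0.713, and the second probe set of the gene ran the other way at each time.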

How the results depend on the processing

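Over 320 alternative values of the 23 called gene results, 229 stayed past the threshold, 91 did not and 0 reversed. Other probe sets, read singly, are not among these values. The filter, the variance trend and the threshold cannot change a log2 difference, nor can leaving out a 12 h array where none enters it. In these settings no reversal was possible, so its absence carries no information. The looser threshold can only keep a call. Without the variance trend limma called 0 members for BMP4 over the times (12 at an unadjusted p under 0.05), 0 at 12 h (9), 0 at 24 h (12), 1 for time in culture (SEMA6D), 0 for untreated 24 h against 0 h (9) and 0 for the change from 12 h to 24 h (5). When the probe sets of a gene were averaged, the counts were 2 over the times (EPHA1 and UNC5B), 0 at 12 h (8 unadjusted), 0 at 24 h (11), 0 for untreated 24 h against 0 h (10) and 0 for the change from 12 h to 24 h (6). Leaving out 1 array of 12 h gave 1 to 2 members over the times, 1 to 2 at 12 h, 3 at 24 h and 1 for the change from 3 h to 24 h. Over the times, 0 members were called without all 12 h arrays, 6 without the 3 h arrays and 2 (EPHA5 and NTNG2) without the 24 h arrays. An added value of 1 gave 1 member at 12 h, and no filter 1. No filter gave 0 for untreated 24 h against 0 h (18 unadjusted), and the change from 12 h to 24 h gave 0 with no filter, an added value of 1 or an added value of 100 (5 unadjusted each). At an adjusted p under 0.10 there were 5 members at 12 h, 1 for the change from 3 h to 24 h and 2 for untreated 24 h against 0 h. With A and B as a replicate block, a pairing the labels do not state (the deviations of the arms correlated at 0.126), the counts were 6 over the times, 2 at 3 h, 9 at 12 h, 7 at 24 h, 4 and 3 for the changes from 3 h and from 12 h to 24 h, 2 for untreated 3 h and 13 for untreated 24 h against 0 h. The cause of these moves was not tested. Quantile normalization, and a filter on all arrays, left the counts within 1.5 times. Of 16 alternatives over the times, the call was kept in 13 for EPHA5, 9 for EPHA1 and UNC5B, 8 for SEMA3D and SEMA6D and 6 for PLXNA2 and PLXNC1. Of 13 at 12 h it was kept in 11 for NTNG2 and 7 for SEMA6D, and of 13 for time in culture in 8 (SEMA3F) to 13 (SEMA6D). Dim members near the filter carry the least information.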
